A study of Mus musculus with 6 samples.

Results

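Epiblast cells of mouse embryos at E5.0, around implantation, were compared with epiblast cells at E4.75. Cells were chosen by 3 sums of marker UMIs per 10000 UMIs of the cell (UMI, unique molecular identifier, 1 captured RNA molecule). The epiblast sum (Pou5f1, Slc7a3, Pim2, L1td1) had to be at least 5, the endoderm sum (Cubn, Lrp2, Dab2, Amn) under 10, and the trophoblast sum (Tfap2c, Gata3, Rhox6, Rhox9, Phlda2, Wnt7b) under the epiblast sum. The rule took 1945 of 5504 kept cells at E5.0 (35.3% [34.1, 36.6]) and 862 of 2548 at E4.75 (33.8% [32.0, 35.7]), 2807 together of 21856 kept cells in all stages. Kept cells had at least 1500 detected genes and at most 15% mitochondrial UMIs.

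The study profiled mouse embryos from E3.5 to E5.5 with 10x single-cell RNA sequencing, 1 library per stage. Both stages compared here came from B6SJLF1/J females, 7 weeks old, mated with B6CBAF1/J males, and the labels name no engineered allele. At both stages the embryos were dissected from the uterus and dissociated with Accumax, and no 20 µm filter was used, unlike at E4.5. How many embryos went into a library is not known here. Since each stage is 1 library, replicate error is unknown and no difference below has a test, and brackets hold exact 95% intervals that cover counting error only.

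The epiblast is the tissue that forms the body of the embryo. As the blastocyst implants, its cells leave the naive state, which rests on factors such as Klf2 and Tfcp2l1 and is marked by Zfp42. They enter the formative state, marked by Otx2, Pou3f1, Fgf5 and Dnmt3b, while Pou5f1 stays on. In the same period the cells of female embryos begin to silence 1 of their X chromosomes, a process driven by the long non-coding RNA Xist.

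The libraries differed in depth. The epiblast cells held a median of 18940 UMIs and 4604 genes at E5.0, against 29722.5 UMIs and 5956 genes at E4.75, and summed to 40509572 UMIs at E5.0 and 27969293 at E4.75. Their median mitochondrial share was 4.03% at E5.0 and 5.01% at E4.75, and ribosomal protein genes took 20.9% of UMIs at E5.0 and 17.9% at E4.75. The part of depth and of these shares in the differences below was not tested. The files of the 2 libraries had 5 barcodes in common, and no such barcode was an epiblast cell in both.

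The label of the cells was compared with epiblast markers that the rule did not use, and sums of marker lists are given beside them. Sox2 and Utf1, transcription factors of pluripotent cells, stood at 66.6 and 592 CPM (counts per 1000000 UMIs) at E5.0 and at 86.2 and 578 CPM at E4.75. In endoderm-scored cells of the same libraries Sox2 was at 3.28 CPM at E5.0 and 2.07 CPM at E4.75. In trophoblast-scored cells it was at 11.9 and 2.55 CPM at these stages. Tdgf1 and Fgf4, given below, are further such markers. Others set the epiblast apart less well. Nanog had only 5.33 CPM at E5.0 and 3.83 CPM at E4.75 in epiblast cells. At E5.0 Otx2 had 86.6 CPM in endoderm-scored cells and Pou3f1 266 CPM in trophoblast-scored cells, against 146 and 456 CPM in the epiblast. The 20 endoderm markers summed to 471 CPM at E5.0 and 429 CPM at E4.75, where endoderm-scored cells held 14182 and 16247 CPM at the same stages. The 19 trophoblast markers summed to 297 CPM at E5.0 and 310.1 CPM at E4.75, against 4442 and 4824 CPM in trophoblast-scored cells. Genes of the cell rule are among the endoderm and trophoblast markers. The rule genes also chose the scored cells, so these contrasts were partly fixed by the choice and are a description. Markers of blood and endothelium summed to 23.4 CPM at E5.0 and 22.6 CPM at E4.75, with C1qb and Gzmb at 0 in both. The sum for uterus and decidua, 613 CPM at E5.0 and 676 CPM at E4.75, was mostly Epcam, which epiblast cells also express, and Cdh16, Sprr2f and Prl8a2 were at 0 in both.

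Few cells lay near the limits of the rule. At E5.0, 26 cells had an epiblast sum from 5 to 6 and 11 cells had one from 4 to 5, and at E4.75 these numbers were 0 and 1. The median epiblast sum was 12.6 at E5.0 and 18.3 at E4.75. Of the 4 genes in it, L1td1, an RNA-binding protein of pluripotent cells, differed most, with 329.6 CPM at E5.0 and 731 CPM at E4.75. Pou5f1, which encodes OCT4, had 571 CPM at E5.0 and 663 CPM at E4.75. These values chose the cells and are given as a description.

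Over all genes, more were lower at E5.0 than higher. Of 8404 genes with at least 10 CPM at either stage, 400 (4.76%) were at least 1.5-fold higher at E5.0 and 1152 (13.7%) at least 1.5-fold lower. At least 2-fold differences were seen for 96 genes (1.14%) higher and 376 (4.47%) lower. The median log2 ratio of all 8404 genes was -0.13 (log2 of CPM + 1, E5.0 over E4.75), so that median-of-ratios scaling, which sets it near 0, gave 697 higher (8.31% of 8383 genes) and 762 lower (9.09%). The share of the differing genes that were higher was thus 25.8% with CPM and 47.8% with that scaling. Below, "higher" and "lower" mean at least 1.5-fold by CPM, and counts of list members stand against the 4.76% and 13.7% of all genes. Of the genes also measured in the other lineages, 4.26% were higher and 4.62% lower in endoderm-scored cells, and 7.04% were higher and 10% lower in trophoblast-scored cells. Where median-of-ratios scaling moves a count of list members by over 1.5 times, its count is given beside it or here. With that scaling 1 member was higher in each of the NODAL, unfolded protein response, DNA methylation and S phase lists, and 2 in the histone list. A list member could pass the level of 10 CPM through 1 stage alone, so these counts describe the lists and support nothing further.

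The gene with the largest fall among the 16 named on the lower side was Bnc2, which encodes the zinc finger protein basonuclin 2. It had 35.5 CPM [33.7, 37.4] at E5.0 and 311 CPM [305, 318] at E4.75, an 8.75-fold difference. Bnc2 was almost confined to the epiblast, with 1.04 CPM at E5.0 and 1.68 CPM at E4.75 in endoderm-scored cells and 0.557 and 1.36 CPM in trophoblast-scored cells. Before and after, Bnc2 stood at 386 CPM (E4.5) and 23.9 CPM (E5.25), so the step between E4.75 and E5.0 was the steepest of the 3. Enox1, a cell surface oxidase, followed the same order with 207, 98.6, 17.5 and 14.9 CPM over these 4 stages. The E4.5 embryos came by flushing, from superovulated 4-week-old mothers, and their cells were filtered, so E4.5 differs from the later stages in collection as well.

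Genes of metabolism stood among the largest falls. Tdh, the threonine dehydrogenase that feeds one-carbon metabolism in mouse pluripotent cells, had 20.8 CPM at E5.0 and 109.7 CPM at E4.75, 5.29-fold lower. In endoderm-scored cells Tdh was at 109.2 CPM at E5.0 and 126 CPM at E4.75, within 1.5-fold. Pfkp, the platelet form of the glycolytic enzyme phosphofructokinase, had 20.4 CPM at E5.0 and 92.9 CPM at E4.75. Txnip, an inhibitor of glucose uptake, had 34.6 CPM at E5.0 and 111 CPM at E4.75. Upp1, which splits uridine, had 112 CPM at E5.0 and 286 CPM at E4.75, and reached 40.5 CPM at E5.25.

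Chromatin and germ-line genes were also among the 16. Epop, a partner of Polycomb repressive complex 2, had 54.3 CPM at E5.0 and 211 CPM at E4.75, and it was also lower in endoderm-scored cells (140.1 CPM at E5.0 and 284 CPM at E4.75). L3mbtl2, part of a variant Polycomb complex 1 that silences germ-line genes, had 42.4 CPM at E5.0 and 127 CPM at E4.75. Morc1, an ATPase that silences transposons in the male germ line, had 45.5 CPM at E5.0 and 167 CPM at E4.75. Morc1 stayed under 3 CPM in endoderm-scored and trophoblast-scored cells at both stages, and Wt1, the Wilms tumour transcription factor, under 1 CPM there. In the epiblast Wt1 had 21.3 CPM at E5.0 and 64.0 CPM at E4.75.

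The remaining genes on the lower side were of mixed roles. Lpar1, a receptor for lysophosphatidic acid, had 23.8 CPM at E5.0 and 107 CPM at E4.75. Mylpf, the fast-muscle myosin regulatory light chain, had 78.6 CPM at E5.0 and 266 CPM at E4.75. Sept1, a septin whose gene lies tail to tail with Mylpf on chromosome 7, had 28.0 CPM at E5.0 and 84.4 CPM at E4.75. Exoc6b (exocyst), Zfp428 (zinc finger), Camk1d (a calmodulin-dependent kinase) and Pcolce2 (procollagen processing) were lower by log2 ratios of -1.66, -1.62, -1.54 and -1.53.

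On the higher side the order was led by Kctd16, an auxiliary subunit of GABA-B receptors, with 55.5 CPM [53.2, 57.8] at E5.0 and 13.9 CPM [12.6, 15.4] at E4.75, 3.99-fold. Kctd16 did not follow the course of stages in 1 direction, with 43.9 CPM (E4.5) before and 55.9 CPM (E5.25) after. Setbp1, which encodes a protein that binds the SET oncoprotein, had 138 CPM at E5.0 and 44.5 CPM at E4.75, after 28.5 CPM (E4.5) and before 175 CPM (E5.25). Gpc6, a glypican of the cell surface, had 135 CPM at E5.0 and 51.6 CPM at E4.75. Gpc6 was at 237 CPM at E5.0 and 250.1 CPM at E4.75 in endoderm-scored cells, where the stages lay close together. Fabp5, a fatty acid binding protein with processed copies in the mouse genome, had 263 CPM at E5.0 and 110.2 CPM at E4.75. Mthfd2, the mitochondrial folate enzyme, had 166 CPM at E5.0 and 69.6 CPM at E4.75, while endoderm-scored cells had 42.2 and 43.0 CPM and trophoblast-scored cells 210.1 and 214 CPM at these stages.

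Several genes on the higher side were higher in all 3 lineages. Rpa3, the smallest subunit of the single-stranded DNA binding protein RPA, had 142 CPM at E5.0 and 39.0 CPM at E4.75 in the epiblast. It had 85.3 CPM at E5.0 and 20.7 CPM at E4.75 in endoderm-scored cells, and 147 and 30.2 CPM in trophoblast-scored cells, so that its log2 ratio was 1.83 in the epiblast, 1.99 in endoderm and 2.24 in trophoblast. With the mean of the other lineages subtracted, an alternative chosen after seeing the data, Rpa3 came to -0.28, Pclaf (a PCNA-binding factor) to -0.33 and Bex4 (an X-linked gene of the brain-expressed family) to -0.0010. Tmem238, Trmt112 (a methyltransferase activator), Fabp5 and Polr3k (an RNA polymerase III subunit) came to values from 0.17 to 0.35. Grip1 (a receptor scaffold), Stxbp6 (a SNARE regulator) and Ldb2 (a cofactor of LIM proteins) kept 0.82, 0.98 and 0.65, against 1.55, 1.47 and 1.40 without the subtraction. Ldb2 had only 0.834 CPM at E5.0 and 0.157 CPM at E4.75 in endoderm-scored cells, and 0.789 and 0 CPM in trophoblast-scored cells. The subtraction for Ldb2 thus rests on few UMIs.

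**Figure D1:**
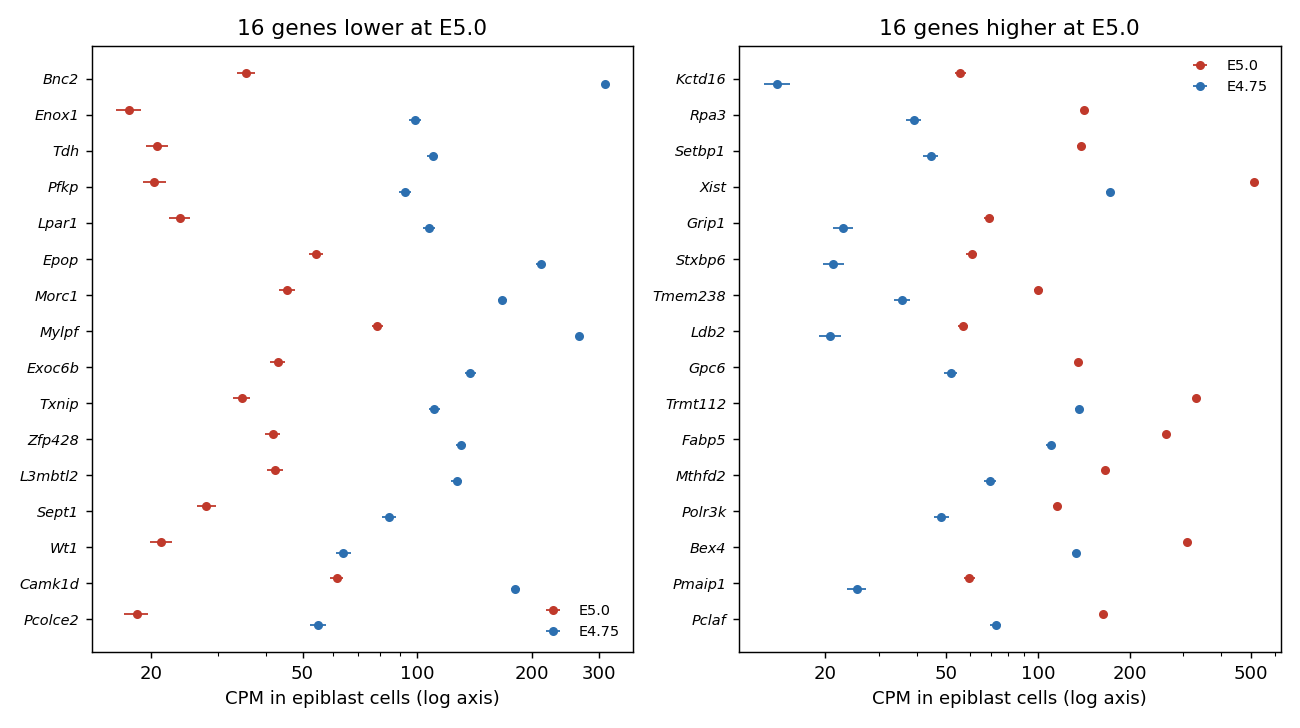
CPM (log axis) of the 16 genes named on each side in epiblast cells at E5.0 (red) and E4.75 (blue), with exact 95% Poisson intervals of the summed counts. Bnc2 lies at 35.5 CPM at E5.0 and 311 CPM at E4.75, and Xist at 513 CPM at E5.0 and 172 CPM at E4.75.

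The named genes were also summed in each cell. Each cell was thinned to 8000 UMIs, which left 1939 cells at E5.0 and 854 at E4.75 (6 and 8 were shallower). The 16 lower genes together gave a median of 4 UMIs per cell at E5.0 (quartiles 3 and 6) and 17 at E4.75 (12 and 23). The 16 higher genes gave 20 at E5.0 (15 and 25) and 7 at E4.75 (5 and 10). The quartile ranges of the stages did not overlap for either sum, but these genes were chosen for that difference.

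Bnc2 was found in 20.4% of thinned cells at E5.0 and 68.5% at E4.75, with a mean of 0.275 and 2.56 UMIs per cell at these stages. Unthinned, the shares were 38.7% at E5.0 and 89.9% at E4.75. In endoderm-scored cells, which lack the gene almost wholly, the share was 0.366% at E5.0 and 0.864% at E4.75. At E4.75 the 269 cells without a Bnc2 UMI held a mean of 12.3 UMIs of the other 15 lower genes, and the 585 cells with Bnc2 held 17.5. The corresponding means at E5.0 were 4.34 in 1544 cells and 4.95 in 395 cells. These 15 genes were chosen for being lower at E5.0, so the order of the stages in them is fixed by the choice. Setbp1 was found in 59.4% of thinned cells at E5.0 and 22.0% at E4.75, against 1.37% and 0.0960% of endoderm-scored cells.

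**Figure D2:**
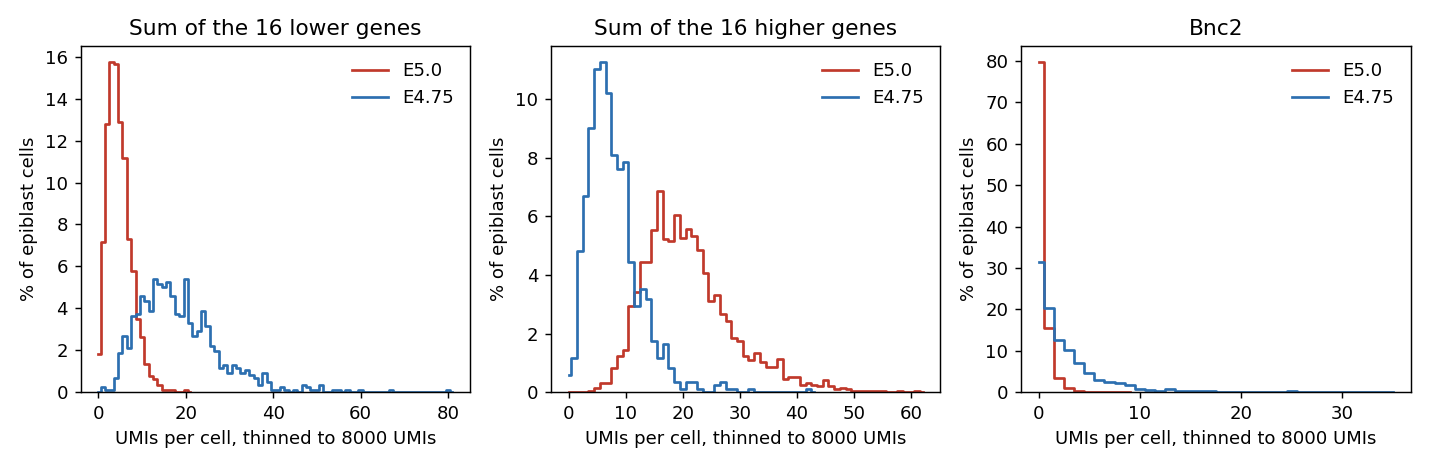
Distribution over epiblast cells of UMIs per cell, thinned to 8000 UMIs, for the sum of the 16 lower genes, the sum of the 16 higher genes and Bnc2, at E5.0 (red, 1939 cells) and E4.75 (blue, 854 cells). The median of the lower sum is 4 at E5.0 and 17 at E4.75, and Bnc2 is at 0 in 79.6% of cells at E5.0 and 31.5% at E4.75.

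Naive pluripotency genes were the list with the lowest median in the epiblast among those with 10 or more measured members. Of 25 listed genes, 14 reached 10 CPM and 9 of them (64.3%) were lower at E5.0, none higher, with a median log2 ratio of -0.90. Klf2, a naive transcription factor, had 4.30 CPM at E5.0 and 31.2 CPM at E4.75, 7.26-fold lower. Fgf4, the ligand that instructs primitive endoderm, had 47.6 CPM at E5.0 and 108 CPM at E4.75. Zfp42, known as REX1, had 36.3 CPM at E5.0 and 77.7 CPM at E4.75, and Tfcp2l1 had 3.58 CPM at E5.0 and 10.0 CPM at E4.75. Il6st and Stat3, the receptor chain and the transducer of LIF signalling, had 5.38 and 14.7 CPM at E5.0 against 14.6 and 26.4 CPM at E4.75. Klf5, Pecam1 and Manba were lower as well, at log2 ratios of -1.08, -0.99 and -0.57. Of the members that did not pass, Dppa5a, an RNA-binding protein, stood at 3249 CPM at E5.0 and 3348 CPM at E4.75, and Dppa4 at 154 and 182 CPM. The naive factors Nanog and Klf4 were below 10 CPM at both stages (Nanog 5.33 CPM at E5.0 and 3.83 CPM at E4.75, Klf4 3.11 and 4.40 CPM). Over the members measured there, the naive list had medians of -0.21 in endoderm-scored and -0.46 in trophoblast-scored cells. With members left out whose epiblast CPM was under 0.2 of that of the other lineages at the higher stage, 6 were lower. Klf5 was found in 8.56% of thinned epiblast cells at E5.0 and 19.3% at E4.75, against 63.9% and 76.3% of endoderm-scored cells. Per thinned cell the 25 naive genes gave a median of 29 UMIs at E5.0 and 33 at E4.75. Dppa5a gave 87.3% of these UMIs at E5.0 and 81.3% at E4.75.

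Formative and primed genes showed no common shift. Of 24 measured members 2 (8.33%) were higher and 4 (16.7%) lower, near the share of all genes, and the median of 0.08 changed sign under 2 alternatives. Otx2 had 146 CPM at E5.0 and 152 CPM at E4.75, Pou3f1 456 and 406 CPM, and Fgf5 80.3 and 81.5 CPM. Dnmt3b, the de novo DNA methyltransferase, had 1680 CPM at E5.0 and 1399 CPM at E4.75. These 4 genes had stood at 173, 80.8, 23.4 and 668 CPM at E4.5, so that Pou3f1, Fgf5 and Dnmt3b were already near their E5.0 level at E4.75. They were not confined to the epiblast. In endoderm-scored cells Fgf5 had 110.2 CPM at E5.0 and 94.4 CPM at E4.75, Otx2 86.6 and 28.9 CPM, and Dnmt3b 731 and 773 CPM. Pou3f1 had 266 CPM at E5.0 and 221 CPM at E4.75 in trophoblast-scored cells. Car14, a carbonic anhydrase, and Lin28b, a blocker of let-7 maturation, were higher, with 56.4 and 153 CPM at E5.0 against 25.4 and 96.7 CPM at E4.75. Lef1, Igfbp2, Cdh2 and Grhl2 were lower, Lef1 (a WNT transcription factor) with 317 CPM at E5.0 and 629 CPM at E4.75 and Igfbp2 with 315 and 522 CPM.

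Of 15 general pluripotency genes 4 (26.7%) were lower and none higher. Among these were L1td1 of the cell rule, Mybl2 and Tdgf1. Mybl2, a cell cycle factor, had 64.9 CPM at E5.0 and 157 CPM at E4.75. Utf1 and Epcam stayed close, Epcam with 509 CPM at E5.0 and 556 CPM at E4.75.

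**Figure D3:**
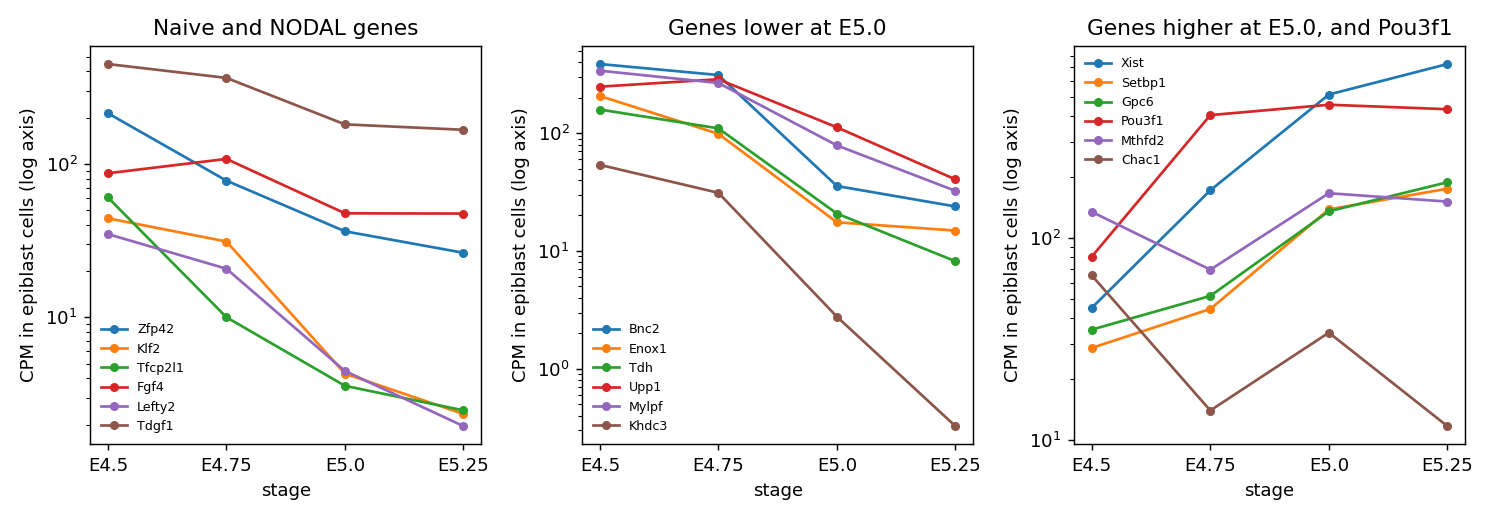
CPM (log axis) in epiblast cells over the 4 stages from E4.5 to E5.25 for naive and NODAL genes, for genes lower at E5.0 and for genes higher at E5.0 with Pou3f1, each point 1 library. Bnc2 drops between 311 CPM at E4.75 and 35.5 CPM at E5.0, while Pou3f1 has its step before, with 80.8 CPM at E4.5 and 406 CPM at E4.75.

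Among signalling genes the NODAL list had 4 of 15 measured members lower (26.7%) and none higher. NODAL signals through an activin receptor together with the coreceptor CRIPTO, and induces its own antagonists LEFTY1 and LEFTY2. Lefty2 had 4.47 CPM at E5.0 and 20.7 CPM at E4.75, and Lefty1 had 7.06 CPM at E5.0 and 22.8 CPM at E4.75. Tdgf1, which encodes CRIPTO, had 181 CPM at E5.0 and 363 CPM at E4.75, and Pcsk6, a convertase that cleaves the NODAL precursor, had 8.64 and 19.5 CPM. Nodal itself, named here after its values were seen, had 14.3 CPM at E5.0 and 18.7 CPM at E4.75, within 1.5-fold. Tdgf1 stood at 447 CPM before (E4.5) and 167 CPM after (E5.25). In endoderm-scored cells Lefty1 was higher at E5.0, with 34.4 CPM at E5.0 and 18.8 CPM at E4.75. Per thinned cell the 18 listed NODAL genes gave a median of 5 UMIs at E5.0 and 8 at E4.75. The single gene Tdgf1 gave 26.3% of these UMIs at E5.0 and 36.8% at E4.75.

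Of 21 FGF and ERK genes 2 were higher (9.52%) and 3 lower (14.3%), the lower share being near that of all genes, and no member was higher at a level of 50 CPM. Fgf4 and Dusp4, a phosphatase of ERK, were lower, Dusp4 with 39.1 CPM at E5.0 and 80.3 CPM at E4.75, as was the immediate early gene Egr1. Fgf8 and Spry2, a feedback inhibitor, were higher, Fgf8 with 41.9 CPM at E5.0 and 21.2 CPM at E4.75 and Spry2 with 33.0 and 18.1 CPM. Fgf8 was also higher in endoderm-scored cells, at 77.4 CPM at E5.0 and 36.1 CPM at E4.75. Of 10 BMP genes, the target Id3 was higher (174 CPM at E5.0 and 96.7 CPM at E4.75) while Id1 (108 and 165 CPM) and Msx1 were lower. Neither Id1 nor Msx1 was lower with median-of-ratios scaling (0 lower), and Id3 was not past 1.5-fold in the cells with a Y-linked UMI (0 higher). Of 11 WNT genes the receptor Fzd2 was higher, and the nuclear factor Lef1 and the feedback gene Axin2 were lower, where median-of-ratios scaling gave 3 higher and 2 lower. Axin2 had 7.41 CPM at E5.0 and 13.7 CPM at E4.75.

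The integrated stress response list had 7 of 13 measured members higher (53.8%) and none lower, with a median log2 ratio of 0.58. This response couples amino acid shortage and other stress to the transcription factor ATF4. Cebpb, a transcription factor of this response, had 35.2 CPM at E5.0 and 9.12 CPM at E4.75, 3.86-fold. Chac1, which degrades glutathione, had 34.0 CPM at E5.0 and 13.98 CPM at E4.75, and Trib3, a pseudokinase, had 21.8 and 12.0 CPM. Stc2, Nupr1, Ddit4 and Sesn2 were also higher, at log2 ratios of 1.06, 0.90, 0.66 and 0.58. Atf4 itself had 172 CPM at E5.0 and 124 CPM at E4.75, within 1.5-fold, and the 19 tRNA synthetase genes, many of which ATF4 can induce, had none past 1.5-fold. In trophoblast-scored cells the list was lower, with 7 of 13 members lower, 1 higher and a median of -0.66. The course was not in 1 direction, since Chac1 stood at 65.2 CPM (E4.5) and 11.7 CPM (E5.25), and Trib3 at 59.5 and 11.4 CPM. Per thinned cell the 17 listed genes found in the files gave a median of 4 UMIs at E5.0 and 3 at E4.75.

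Targets of p53, the tumour suppressor that answers DNA damage and other stress, had 6 of 15 measured members higher (40%) and 1 lower, with a median of 0.45. Pmaip1, the death-promoting protein NOXA, had 59.5 CPM at E5.0 and 25.3 CPM at E4.75. Trp53inp1 and Ccng1 (cyclin G1) had 34.8 and 40.1 CPM at E5.0 against 16.1 and 18.8 CPM at E4.75. Bbc3 (PUMA), Rps27l and Sesn2 were higher and Sesn1 was lower. Trp53, the gene of p53 itself, had 275 CPM at E5.0 and 269 CPM at E4.75. Pmaip1 and Sesn2 belong to further lists as well. In the endoderm 3 of 12 members were higher and 1 lower, and in trophoblast none of 11 was higher and 3 were lower.

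The unfolded protein response list had 6 of 18 members lower (33.3%) and none higher. Hspa5, the chaperone BiP, had 215 CPM at E5.0 and 401 CPM at E4.75. Calr, the calcium-binding chaperone calreticulin, had 253 CPM at E5.0 and 447 CPM at E4.75, and Xbp1, a transcription factor of this response, had 23.8 and 41.3 CPM. The list median was -0.38 in the epiblast and -0.36 in endoderm-scored cells. Among heat shock genes 4 of 15 were lower (2 with median-of-ratios scaling), with Hspb1 at 241 CPM at E5.0 and 552 CPM at E4.75, and Hspe1 was higher. Of 10 immediate early genes, a sign of handling, Btg2 was higher and Fos, Egr1 and Klf6 were lower, all under 30 CPM at both stages, and that scaling left 1 lower.

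In metabolism, cholesterol synthesis had 7 of 23 measured members lower (30.4%), none higher and a median of -0.43. With median-of-ratios scaling 3 were lower and the median was -0.28. Ebp, a sterol isomerase, had 8.17 CPM at E5.0 and 23.7 CPM at E4.75, and Insig1, a sensor that restrains the pathway, had 35.0 and 62.1 CPM. Cyp51, a sterol demethylase, was lower too. In the other lineages of the same libraries the list was higher at E5.0, with 12 of 22 members higher and a median of 0.64 in endoderm, and 16 of 22 higher and a median of 0.76 in trophoblast, against 4.26% and 7.04% of all genes higher there. Insig1 had 181 CPM at E5.0 and 79.2 CPM at E4.75 in endoderm-scored cells. Of 19 genes of fatty acids and lipids 7 were lower in the epiblast (36.8%), among them Plin2, a lipid droplet coat, with 9.11 CPM at E5.0 and 21.5 CPM at E4.75, and Elovl6, an elongase, with 147 and 245 CPM. Fabp5 was the member that was higher.

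Of 19 measured glycolysis genes 4 were lower (21.1%), namely Pfkp, Pfkm (the muscle form), Hk2 (hexokinase) and the lactate carrier Slc16a3, and Ldhb was the 1 higher member (5.26%). With median-of-ratios scaling 2 were lower and 3 higher. Ldhb, a lactate dehydrogenase subunit, had 82.1 CPM at E5.0 and 37.9 CPM at E4.75, and Ldha stood at 1416 CPM at E5.0 and 1163 CPM at E4.75. Hk2 had 121 CPM at E5.0 and 185 CPM at E4.75. None of the 43 nuclear genes of the respiratory chain was lower and 4 were higher (10 with median-of-ratios scaling), among them Cox5b with 498 CPM at E5.0 and 279 CPM at E4.75. Of the 13 mitochondrially encoded genes 4 were lower (2 with that scaling), with mt-Nd3 at 847 CPM at E5.0 and 2273 CPM at E4.75. In trophoblast-scored cells mt-Nd3 was at 623 CPM at E5.0 and 1851 CPM at E4.75. Of 21 genes of one-carbon metabolism 1 was higher (4.76%), Mthfd2. Lower were 3 (14.3%), Tdh, Upp1 and the folate receptor Folr1. Both shares are near those of all genes.

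Among chromatin genes, Zfp57, which protects imprints, had 9.97 CPM at E5.0 and 37.3 CPM at E4.75. Dnmt3l, the cofactor of de novo methylation, had 209 CPM at E5.0 and 381 CPM at E4.75, and the other 9 measured genes of the DNA methylation list stayed within 1.5-fold, Dnmt1 and Tet1 among them. Epop was the only lower member among the 14 measured genes of the Polycomb list, which does not hold L3mbtl2. Of 19 histone genes 8 were lower (42.1%), with the linker histone Hist1h1b at 108 CPM at E5.0 and 282 CPM at E4.75, and H3f3a was higher. At a level of 50 CPM 3 were lower and the list median changed sign, to 0.08 against -0.36. With the mean of the other lineages subtracted 1 was lower. The summed histone UMIs per thinned cell were higher at E5.0, with a median of 72 at E5.0 and 61.5 at E4.75. The single gene H2afz gave 39.2% of these UMIs at E5.0 and 36.5% at E4.75, so the sum does not describe the members evenly. Hist1h1b was also lower in endoderm-scored cells (39.4 CPM at E5.0 and 128 CPM at E4.75) and in trophoblast-scored cells (77.8 and 205 CPM). Of 30 genes of G2 and M phase 7 were lower (23.3%), among them Mki67 with 55.3 CPM at E5.0 and 106 CPM at E4.75 and Nusap1 with 60.1 and 119.8 CPM, and of 30 S phase genes 2 were lower. With median-of-ratios scaling 3 genes of G2 and M phase were lower (9.09% of all genes were) and 0 of S phase.

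Germ-cell and oocyte genes had 4 of 10 measured members lower and 2 higher. Khdc3, a maternal gene whose protein sits in the subcortical complex of the early embryo, had 2.76 CPM at E5.0 and 31.1 CPM at E4.75, an 11.3-fold difference, and 0.326 CPM at E5.25. Ooep, of the same complex, had 145 CPM at E5.0 and 221 CPM at E4.75. Tex19.1, which restrains transposons, had 127 CPM at E5.0 and 354 CPM at E4.75. Zp3, a zona pellucida protein, was lower, and Sycp1 and Sycp3 of the meiotic synaptonemal complex were higher, Sycp3 with 20.9 CPM at E5.0 and 8.69 CPM at E4.75. No two-cell-like gene of 10 listed reached 10 CPM.

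Cell surface and matrix genes changed in part. Fn1, fibronectin, had 83.1 CPM at E5.0 and 239 CPM at E4.75, and Nid1, Lamc1, Itgb5, Itga3 and Agrn were lower as well, 6 of 18 measured members of the integrin and basement membrane list (33.3%) and none higher, with 3 lower under median-of-ratios scaling. Of 19 guidance molecules 5 were higher and 4 lower (2 under that scaling). Epha4, an ephrin receptor, had 4.91 CPM at E5.0 and 24.9 CPM at E4.75, and Sema6a, a semaphorin, had 229 and 107 CPM. Robo1, the SLIT receptor, had 36.4 CPM at E5.0 and 17.1 CPM at E4.75, and Efna5, an ephrin, had 70.6 and 41.9 CPM. Of 29 genes of epithelial polarity, junctions and lumen 1 was higher (Patj) and 2 were lower (Cobl and Ctnna1), a share near or under that of all genes.

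**Figure D4:**
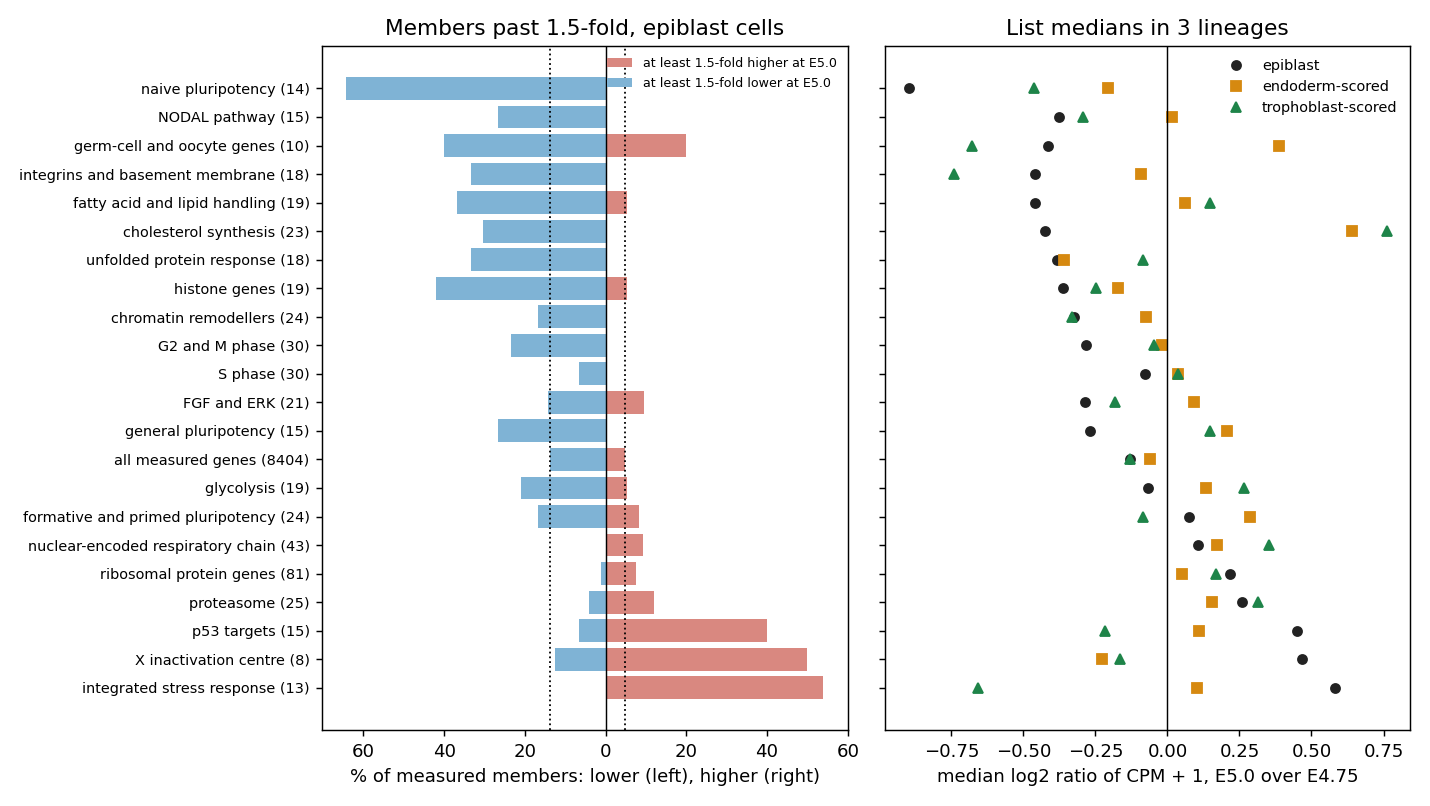
Left, percent of measured members of each gene list (number in parentheses) at least 1.5-fold lower (blue) or higher (red) at E5.0 in epiblast cells, with dotted lines at the 13.7% and 4.76% of all measured genes. Right, list medians of the log2 ratio in epiblast, endoderm-scored and trophoblast-scored cells, where the cholesterol list lies at -0.43, 0.64 and 0.76.

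Xist was the most abundant of the 16 genes on the higher side, with 513 CPM [506, 519.7] at E5.0 and 172 CPM [167, 177] at E4.75, after 45.1 CPM (E4.5) and before 726 CPM (E5.25). It was at 586 CPM at E5.0 and 549 CPM at E4.75 in endoderm-scored cells, and at 333 and 372 CPM in trophoblast-scored cells, within 1.5-fold in both, and the difference between lineages was not tested. Of 8 measured genes of the X inactivation centre 4 were higher. Jpx and Ftx, non-coding genes that promote Xist, had 25.4 and 134 CPM at E5.0 against 8.26 and 62.7 CPM at E4.75. Tsix, the antisense repressor of Xist, was lower with 50.5 CPM at E5.0 and 77.7 CPM at E4.75, and was within 1.5-fold with median-of-ratios scaling. Xist and Tsix overlap on opposite strands, and no source used here tells if counting was stranded. The gene Xist lies on the X chromosome at chrX:103460366-103483254 on the minus strand (GRCm38).

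Cells with and without Y-linked RNA were present at both stages, and cells were divided by UMIs of the Y-linked genes Ddx3y, Eif2s3y, Kdm5d and Uty. No such UMI was found in 863 cells at E5.0 (44.4% [42.1, 46.6]) and 424 at E4.75 (49.2% [45.8, 52.6]). Cells with 3 or more Y-linked UMIs numbered 837 at E5.0 and 378 at E4.75. Shallow cells of male embryos can lack a Y-linked UMI, and 1 or 2 such UMIs were found in 245 cells at E5.0 and 60 at E4.75. Without a Y-linked UMI, Xist stood at 1011 CPM [997, 1026] at E5.0 and 299.9 CPM [291, 309] at E4.75, and at least 3 Xist UMIs were found in 79.5% [76.6, 82.1] of such cells at E5.0 and 63.2% [58.4, 67.8] at E4.75. With 3 or more Y-linked UMIs, Xist stood at 69.9 CPM at E5.0 and 34.7 CPM at E4.75. Xist was thus 3.37-fold higher at E5.0 in the cells without a Y-linked UMI and 2.02-fold higher in the cells with 3 or more. The share of cells without a Y-linked UMI was slightly smaller at E5.0 than at E4.75. Jpx and Ftx were higher at E5.0 in both kinds of cells. Without a Y-linked UMI they had 33.9 and 174 CPM at E5.0 against 9.55 and 70.1 CPM at E4.75. With 3 or more they had 17.5 and 102 CPM at E5.0 against 6.80 and 56.5 CPM at E4.75.

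X-linked genes were lower at E5.0 more often than the rest. Of 316 measured X-linked genes 83 were lower (26.3%) and 20 higher (6.33%) in the epiblast, where 9 of 255 were lower and 21 higher in endoderm-scored cells. In cells without a Y-linked UMI 94 of 313 X-linked genes were lower (30.0%) with a median log2 ratio of -0.31, against 13.3% and -0.11 for 7987 autosomal genes. In cells with 3 or more Y-linked UMIs 46 of 285 X-linked genes were lower (16.1%) with a median of -0.09, against 14.2% and -0.14 for autosomal genes. The level of an X-linked gene in cells without over cells with Y-linked UMIs had a median ratio of 1.38 at E5.0 (292 genes) and 1.62 at E4.75 (307 genes), while autosomal genes had 0.998 and 0.985. Atrx, a chromatin remodeller, is an example picked for this pattern. It had 484 CPM at E5.0 and 779 CPM at E4.75 in cells without a Y-linked UMI, and 362 and 474 CPM in cells with 3 or more. Not every X-linked gene did the same. Msn was at 0.678 of its E4.75 level in cells without a Y-linked UMI and at 0.684 in cells with 3 or more. Hmgb3 and Usp9x were lower in both kinds of cells. Cells of 1 embryo are not independent.

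**Figure D5:**
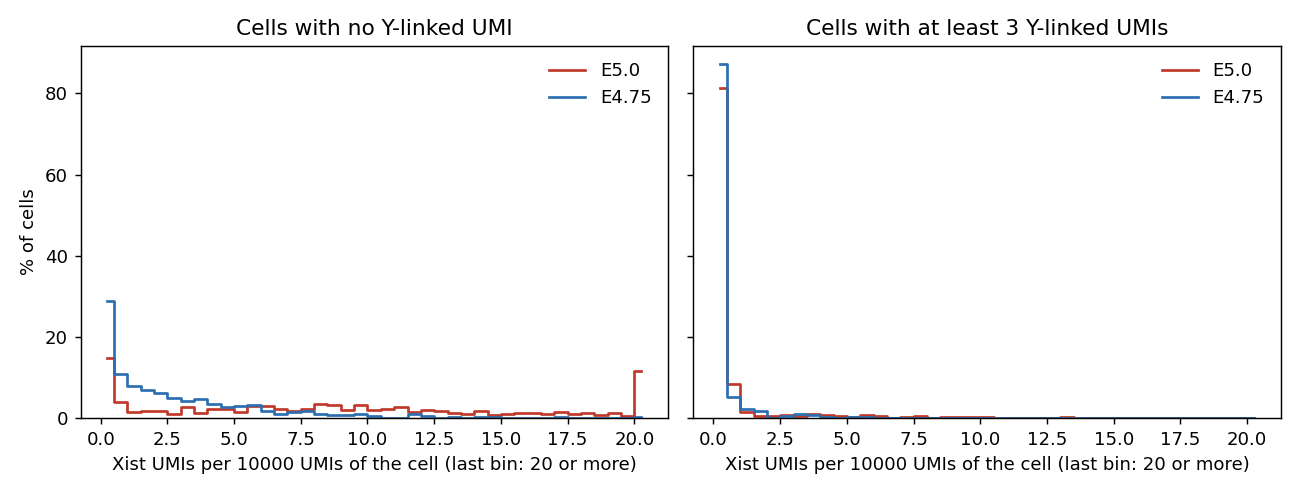
Distribution of Xist UMIs per 10000 UMIs of the cell over epiblast cells without a Y-linked UMI (left) and with at least 3 (right), at E5.0 (red) and E4.75 (blue). Left, 14.9% of cells at E5.0 and 28.8% at E4.75 fall in the lowest bin, and 11.7% at E5.0 fall in the last bin of 20 or more. Right, 81.2% of cells at E5.0 fall in the lowest bin.

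Part of the genes that differed in the epiblast differed in the same direction in the other lineages of the same libraries. Of the 400 higher genes 286 were measured in endoderm-scored cells, where 112 were higher (39.2%, against 4.26% of all genes) and 4 lower. In trophoblast-scored cells 276 were measured, of which 153 were higher (55.4%, against 7.04%) and 13 lower. Of the 1152 lower genes 838 were measured in endoderm, with 157 lower (18.7%, against 4.62%) and 31 higher, so most were within 1.5-fold there. In trophoblast 725 were measured, with 238 lower (32.8%, against 10%) and 22 higher. The genes differed in transcript length as well. The longest annotated transcript of the higher genes had a median of 2280.5 bases, against 3674 for the lower genes and 3471 for all measured genes. The same order was seen in endoderm-scored cells (2708, 3787 and 3502 bases) and in trophoblast-scored cells (1713, 4050.5 and 3446 bases). What part the libraries, their depth or RNA length have in these shared differences was not tested.

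Promoter sequences were taken from RefSeq on GRCm38.p6, 250 bases before to 50 after each gene's listed start, and 324 of the 400 higher and 869 of the 1152 lower genes had one. Shown are Enox1, of the largest falls, and Xist and Rpa3, of the largest rises, with the GC box GGGCGG, read on both strands and so also as CCGCCC, in capitals. The window listed for Bnc2 lies inside the annotated gene and is not shown. The regions are chr14:77156513-77156812 (plus strand) for Enox1, chrX:103483184-103483483 (minus strand) for Xist and chr6:8259092-8259391 (minus strand) for Rpa3.
Enox1: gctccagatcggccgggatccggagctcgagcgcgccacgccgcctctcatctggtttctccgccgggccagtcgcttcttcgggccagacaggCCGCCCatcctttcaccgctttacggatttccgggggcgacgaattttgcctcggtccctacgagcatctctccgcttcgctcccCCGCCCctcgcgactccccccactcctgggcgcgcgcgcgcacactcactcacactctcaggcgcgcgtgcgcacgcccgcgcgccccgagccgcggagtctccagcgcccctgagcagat
Xist: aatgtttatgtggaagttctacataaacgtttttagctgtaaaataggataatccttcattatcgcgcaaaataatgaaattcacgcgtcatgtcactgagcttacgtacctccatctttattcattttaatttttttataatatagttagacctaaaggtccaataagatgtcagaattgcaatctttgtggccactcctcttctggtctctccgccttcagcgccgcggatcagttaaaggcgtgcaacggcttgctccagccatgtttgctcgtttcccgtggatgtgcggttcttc
Rpa3: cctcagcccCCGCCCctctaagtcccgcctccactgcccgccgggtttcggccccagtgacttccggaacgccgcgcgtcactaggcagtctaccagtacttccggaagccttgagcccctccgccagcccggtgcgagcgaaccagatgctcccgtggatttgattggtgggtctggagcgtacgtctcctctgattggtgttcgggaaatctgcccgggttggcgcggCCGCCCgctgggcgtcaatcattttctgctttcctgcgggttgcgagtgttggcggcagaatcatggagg
Enox1 and Rpa3 have 2 GC boxes each and 42 and 28 CpG, and Xist has none and 15 CpG. GGGCGG was found in 64.5% of the higher, 67.3% of the lower and 68.3% of all measured genes with a window, and in 35.9% of all 27025 windows of the table. Fewer than 5 CpG were found in 3.70% of the higher genes, 12.1% of the lower genes and 4.32% of all measured genes. CGGAAG, searched on both strands, was found in 34.0%, 24.3% and 36.6%. A match is a description of these letters and not a site of binding.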

How the data were processed

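The authors deposited UMI counts per gene and barcode for each stage, as whole numbers in matrix form, and per the file headers the software was Cell Ranger 7.1.0. Builds listed in the submitters' processing notes are mm10, GRCm38 and also hg38, whose role they leave unsaid. Annotation release, strand setting and cell calling were not given in the sources used here. Of 32285 gene identifiers 32158 matched GENCODE M21 (GRCm38), which gave positions and lengths, and 38 repeated symbols were left out of lists. UMIs were summed over the epiblast cells of a library and expressed as CPM. Endoderm-scored cells had an endoderm sum of at least 10 and above the trophoblast sum, trophoblast-scored cells a trophoblast sum of at least 5 and an endoderm sum under 10, and all had an epiblast sum under 5. Ratios are of CPM + 1, folds are plain, and the sums have exact Poisson and shares exact binomial (Clopper-Pearson) intervals at 95%. With 1 library per stage no p-value is given.

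The text names the genes of the 16 top and 16 bottom log2 ratios among those with at least 50 CPM at the higher stage, at least 1.5-fold apart, and with epiblast CPM at least 0.2 of that of the other lineages, leaving out the 14 genes of the cell rule, haemoglobin, ribosomal protein and mitochondrial genes, and unnamed models, and beside these 10 core genes and list members past 1.5-fold. The members and the 53 gene lists were chosen with earlier results of these data known. No doublets were removed in the main analysis. The scripts were tested on simulated data. Python 3.11.15, numpy 2.4.6, scipy 1.17.1, pandas 2.3.3 and scanpy 1.11.5 were used.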

Additional observations from a re-analysis of the deposited data

Results flagged for a closer look

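The cholesterol synthesis list went in opposite directions in lineages of the same 2 libraries. Its median log2 ratio of E5.0 over E4.75 was -0.43 in the epiblast, 0.6412 in endoderm-scored and 0.7608 in trophoblast-scored cells. The integrated stress response list had a median of 0.58 in the epiblast and -0.6570 in trophoblast-scored cells. Both stood out because the directions are opposite between lineages, and the difference between lineages was not tested, since each stage is 1 library.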

How the results depend on the processing

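The counts of 400 higher and 1152 lower genes stayed within 1.5 times under other cell filters, doublet removal by Scrublet scores (34 of 1945 cells removed at E5.0 and 10 of 862 at E4.75), thinning, equal weight for each cell and another pseudocount. They moved with median-of-ratios scaling (697 higher and 762 lower), with a level of at least 50 CPM (161 and 410) or 1 CPM (1277 and 2644) and with a 2-fold limit (96 and 376). Chosen after seeing the data, subtraction of the mean of the other lineages left 235 higher and 794 lower. It also turned the sign of Rpa3 (-0.28), Bex4 (-0.0010) and Pclaf (-0.33), while the rest of the 16 top and 16 bottom genes kept theirs under the 14 alternatives run for them. Cells with a Y-linked UMI numbered 1082 at E5.0 and 438 at E4.75, and cells without one, also added later, 863 and 424. The medians of the naive, NODAL, cholesterol, integrated stress response and p53 lists kept their sign under every alternative that gave a value, with ranges of -1.01 to -0.50, -0.63 to -0.19, -1.10 to -0.28, 0.40 to 1.17 and 0.34 to 0.58. The medians of the formative, glycolysis, BMP, WNT, respiratory chain, histone, S phase, guidance, polarity, one-carbon, tRNA synthetase and X inactivation centre lists changed sign under 1 to 4 alternatives each. No replicate could be left out. No paired analysis was possible because each stage is 1 library. Genes under about 10 CPM and differences between embryos are beyond what these counts can show.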
